A study of Mus musculus with 21 samples.

Results

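Contacts of the promoter of Hba-a1, one of the adult alpha-globin genes of the mouse, were compared between fetal liver and fetal brain by 4C-seq, chromosome conformation capture with sequencing from a single viewpoint. The comparison rests on 2 of the 21 libraries of the study, chosen by their labels: the full-template liver library and the brain library, both made with DpnII as the first and Csp6I as the second restriction enzyme. Both tissues came from C57BL/6 fetuses at 14.5 days post coitum. Livers or brains of 10 to 12 embryos were pooled, and the equivalent of 2 livers or 4 brains was fixed with 2% formaldehyde for 10 minutes, so the signals are averages over all cells of the pooled organs. Each tissue has 1 library. With single libraries there is no test and no p-value, and differences are read against a fixed fold of 2 and against a technical partner, a liver library of the same viewpoint made from 1/16 of the template.

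The alpha-globin genes are expressed in red blood cell precursors, which in the mouse fetus are made in the liver, and are silent in brain. Their transcription depends on a set of DNase hypersensitive sites that lie upstream of the genes, several of them inside the neighbouring housekeeping gene Nprl3, and HS-26 is known as the strongest of these enhancers. In 4C-seq, fragments ligated to the viewpoint in fixed nuclei are amplified and sequenced, and the signal falls with distance from the viewpoint. A local rise above that fall marks a stretch that met the viewpoint more often than its neighbours.

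In the RefSeq gene table of GRCm38.p6 the genes in order of rising coordinate are Il9r, Snrnp25, Rhbdf1, Mpg, Nprl3, Hba-x, Hba-a1, Hbq1b, Hba-a2, Hbq1a and, after a non-coding gene, Sh3pxd2b. The table lists HS-26 among the names of Nprl3. Hba-x is the embryonic zeta-globin gene, and Hba-a2 is the other adult alpha-globin gene. The 250 bases before the start of Hba-a1 (RefSeq, GRCm38.p6, plus strand) are shown because they name the viewpoint and because Hba-a2 carries the same sequence. Capitals mark, from left to right, a GATA motif, a CCAAT box, a CACCC box and a TATA box. The GATA motif was searched as GATAAG on both strands. The CACCC box was searched likewise as CCACCC, the TATA box as TATAAG and the CCAAT box by the letters of its name.
Hba-a1 promoter: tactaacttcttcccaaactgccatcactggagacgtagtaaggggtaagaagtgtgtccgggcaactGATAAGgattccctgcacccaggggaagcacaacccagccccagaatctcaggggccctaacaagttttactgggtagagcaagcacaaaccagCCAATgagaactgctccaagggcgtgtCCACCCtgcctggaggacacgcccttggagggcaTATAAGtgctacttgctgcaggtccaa

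Aligned to the same 250 bases of Hba-a2, 247 were identical, 0 were mismatched and the windows were offset by 3 bases at either end. Sequence in this stretch therefore cannot tell the copies apart. Each of the 4 motifs occurred once in both promoters. The GATA motif is held by 6.55% of the 32851 promoter windows of the table, the TATA box by 6.65%, the CACCC box by 28.1% and the CCAAT box by 33.8%. The recognition sequences of the enzymes, GATC for DpnII and GTAC for Csp6I, were not in this window, while 41.9% and 31.5% of all windows hold them.

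All coordinates of the profiles are on chromosome 11 in mm9. The viewpoint was placed at 32184894, the median of the positions where the 3 promoter libraries peaked (32184000 in liver, 32184894 in brain and 32187894 in the 1/16 template library), and HS-26 at 32149000, the peak of both libraries made from HS-26 itself, 35.9 kb to the lower-coordinate side. The files give a signal every 1000 bp relative to the level at the viewpoint, smoothed over 48 running windows of 2 to 49 kb. Each window has a middle, a lower and a higher value, and the 5 kb window is used unless another is named. The depth of each library is unknown, so no counting interval can be given. A relative signal of 1 means the average level of that library over the 326 positions shared by both beyond 10 kb from the viewpoint.

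The libraries differed in how they were filled and gridded. Positions of the full-template liver profile fall on whole kilobases, and those of the brain and 1/16 template profiles lie beside them on a shifted grid, so nearest positions were paired. At 69 of the 326 positions (21.2%) liver was empty and brain was not, all of them at least 59.1 kb from the viewpoint, and at 2 positions the reverse held. Liver took 1 recurring value at 22.1% of its positions, and the 1/16 template library did so at 44%. Equal values at such a floor cannot be ranked, and the part of library filling in the flank differences below was not tested.

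HS-26 was the main contact of the promoter in liver and a weak one in brain. Over the 11 positions from 32144000 to 32154000 the liver signal ran from 0.465 to 0.736 and averaged 0.565. Brain ran from 0.0545 to 0.102 over the same positions and averaged 0.0851. The 1/16 template liver library ran from 0.293 to 0.503 and averaged 0.40. Both liver ranges lay above the whole brain range.

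**Figure D1:**
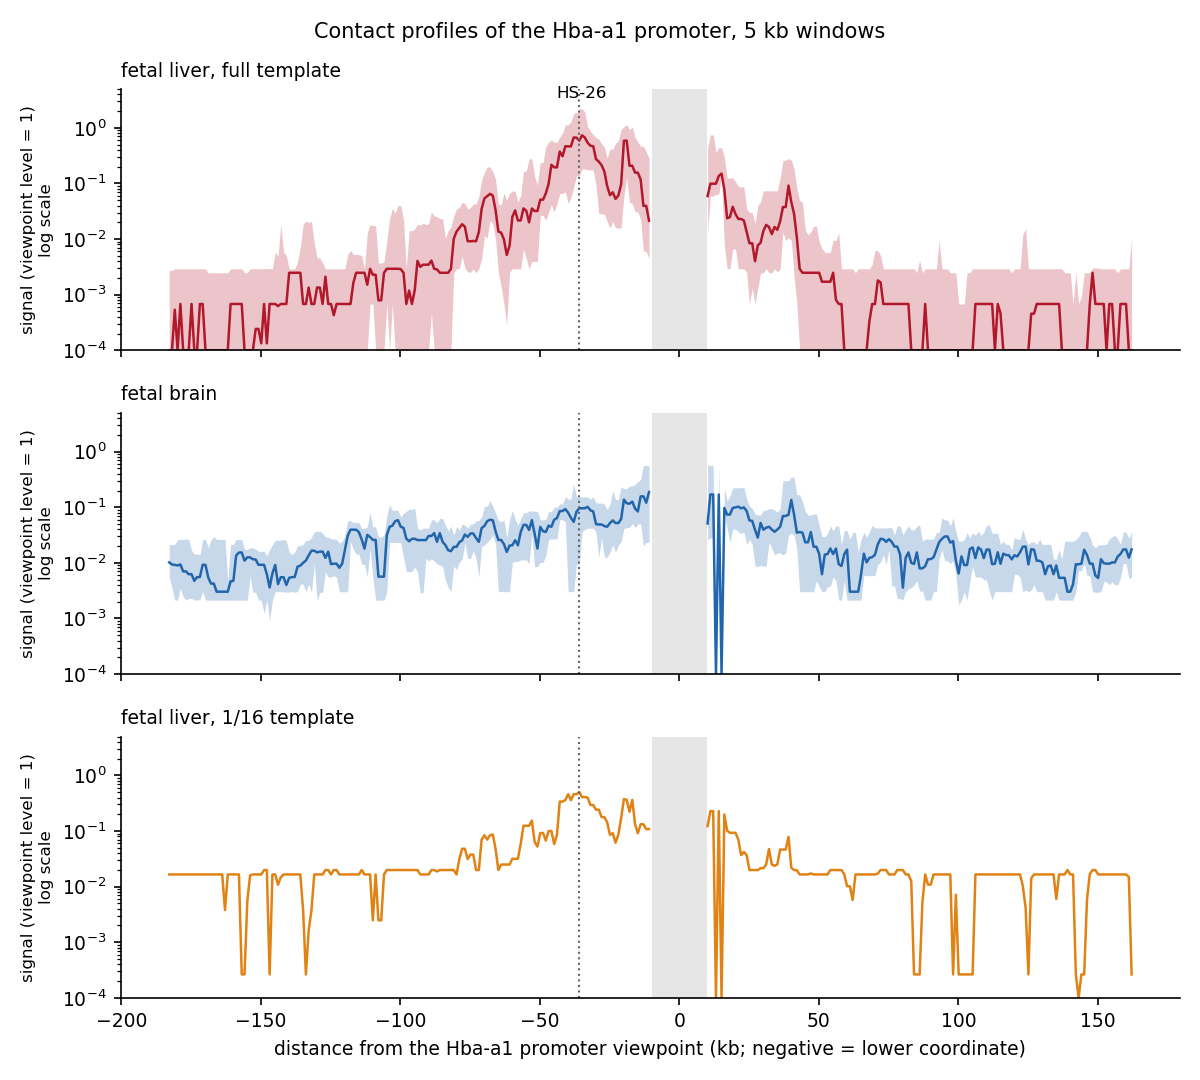
Signal of the 5 kb window (viewpoint level = 1, log scale) against distance from the Hba-a1 promoter viewpoint in kb, for full-template liver, brain and 1/16 template liver. Lines are middle values, shaded bands in the upper panels run from the lower to the higher deposited value, values under 0.0001 are drawn at that level, the grey block covers 10 kb to either side of the viewpoint and the dotted line marks HS-26. Liver rises to 0.736 next to HS-26, whereas brain stays at or under 0.102 there.

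Liver exceeded brain 6.63-fold in signal at HS-26, and the 1/16 template library did so 4.69-fold. The mean signal within 3 kb of the viewpoint was itself 1.26 in liver, 0.730 in the 1/16 template library and 0.793 in brain. Of that level HS-26 reached 44.7%, 54.8% and 10.7%, so on this measure the liver libraries changed order and both stayed above brain. Relative signals at HS-26 were 13.6 for liver, 8.03 for the 1/16 template library and 2.78 for brain. On the scale of log2(relative signal + 0.1), used for all log2 ratios here, liver over brain was 2.25 and 1/16 template liver over brain was 1.50. All 11 positions passed the fold of 2 with either liver library, in a profile where 7.36% of shared positions were higher in liver by that fold. After division by a monotone decay fitted over both sides, the log2 difference was 1.27. A decay fitted only to positions on the HS-26 side gave 0.58, under the fold of 2, and a power law gave 3.58. The size of the difference thus depends on the decay taken as background. These decays were fitted with the HS-26 positions included, and a monotone fit takes up part of the peak itself.

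The spread inside each window limits this difference. At HS-26 the lower and higher window values averaged 0.130 and 1.48 in liver and 0.0258 and 0.159 in brain. In relative signal the bands of the tissues overlapped at all 11 positions. On the deposited scale the lower liver value lay above the higher brain value at 5 of them. Which quantiles the outer values stand for is unknown here.

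Ratios inside one library do not depend on scaling between libraries. The liver signal at HS-26 was 18.1 times that at the mirror position, the point equally far away on the other side of the viewpoint (centre 32220788). The 1/16 template library gave 10.4 and brain 1.43. The mirror window is not free of contacts. It holds a local maximum of liver at 32.224 Mb, 0.0915, and one of brain at 32.225 Mb, 0.136. The latter exceeds the highest brain signal at HS-26, 0.102, and lowers the brain ratio. HS-26 was also 3.44 times the stretch 10 to 25 kb from the viewpoint on the same side in liver, and 2.38 times in the 1/16 template library. In brain HS-26 was below that nearer stretch, at 0.812 of it. Against the stretch 15 to 30 kb beyond it, HS-26 was 24.4 times as high in liver and 6.64 times in the 1/16 template library. In brain it was 2.75 times as high, but signal falls with distance, so this ratio alone shows no local rise. The brain profile did rise from 0.0446 at 32.159 Mb, nearer to the viewpoint, to 0.102 at 32.152 Mb.

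The liver peak was compact. Around HS-26 the signal stayed at or above 0.5 of its peak from 32.144 to 32.154 Mb in liver, an extent of 10 kb, and from 32.142 to 32.154 Mb in the 1/16 template library. In brain the corresponding stretch ran from 32.140 to 32.154 Mb around a peak of 0.102. The lower edge moved between libraries and the upper edge was at the same position in the 3 profiles. With the 2 kb window the liver maximum was at 32.146 Mb, with a signal of 0.899, and in the 3 kb window at 32.150 Mb, with 0.862.

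Other hypersensitive sites of the cluster were placed from HS-26 by the distances in their names, which count kilobases upstream of the globin genes. HS-31 and HS-21, the neighbours of HS-26, averaged 0.420 and 0.406 in liver against 0.0736 and 0.0727 in brain. Their log2 ratios were 2.03 and 2.00, with 11 and 10 of 11 positions past the fold of 2. Both windows share 6 positions with that of HS-26, so these values are not separate contacts. HS-12 and HS-8, closer to the promoter, averaged 0.199 and 0.207 in liver and 0.0784 and 0.105 in brain. Their log2 ratios of 0.88 and 0.53 stayed under the fold of 2. Both turned, to -0.52 and -0.57, once a decay for the HS-26 side was divided out. That decay was fitted with the HS-26 peak included and cannot rise with distance. Its level at nearer positions is therefore at least that at HS-26, so the turn cannot be read apart from that peak.

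**Figure D2:**
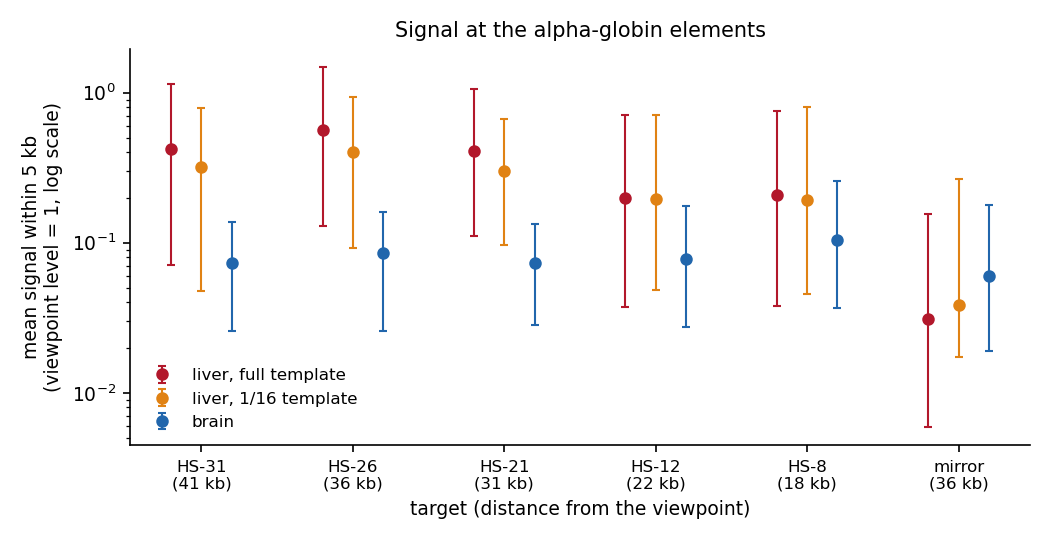
Mean signal within 5 kb (viewpoint level = 1, log scale) at the 5 hypersensitive sites and at the mirror position of HS-26, with the distance from the viewpoint in kb. Points are middle values of full-template liver, 1/16 template liver and brain, and bars run from the mean lower to the mean higher deposited value within the windows. Brain is the lowest of the 3 libraries at every site and the highest at the mirror position.

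A narrower rise stood at 32.165 Mb, between the placed positions of HS-12 and HS-8 and inside the windows of both. Liver reached 0.588 there, the 1/16 template library 0.376 and brain 0.137. Liver fell to 0.0529 at 32.162 Mb before it and to 0.0214 at 32.174 Mb behind it, so the peak was 11.1 and 27.4 times its flanking lows. In the 1/16 template library the peak was 6.10 and 6.20 times its lows, and in brain 3.08 and 1.63 times. The site was the second highest local maximum of both liver libraries beyond 10 kb. Positions 32.165 and 32.166 Mb passed the fold of 2 with the full-template library, at log2 ratios of 1.65 and 1.86, and not with the 1/16 template library, at 0.74 and 0.91.

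From 5 to 10 kb from the viewpoint, mean signal was more than 2-fold higher in brain on the HS-26 side only. Over 5 positions from 32.175 to 32.179 Mb, 5 to 10 kb from the viewpoint on the HS-26 side, the signal averaged 0.233 in brain (0.146 to 0.356) and 0.0468 in liver (0.0262 to 0.0908). The 1/16 template library averaged 0.0980 (0.0606 to 0.143), again below every brain position. Brain was 4.99 times full-template liver and 2.38 times 1/16 template liver. The difference went on past 10 kb, with log2 ratios of liver over brain of -3.33, -1.93 and -2.30 from 32.174 down to 32.172 Mb. With the 1/16 template library they were -1.45, -0.83 and -0.92. From 10 to 25 kb on the other side, too, 10 of 15 positions were higher in brain by 2-fold, and 4 with the 1/16 template library. At the same distance on the other side brain and liver averaged 0.352 and 0.319, a ratio of 1.10, and the 1/16 template library averaged 0.410. Within 5 kb of the viewpoint full-template liver averaged 0.937, brain 0.738 and the 1/16 template library 0.651. The liver libraries thus lay on either side of brain in both of these stretches. The stretch higher in brain lies in the direction of Hba-x, the gene next to Hba-a1 on that side, and was singled out after its values were seen.

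Along the whole profile few positions were higher in liver. Of 326 shared positions 24 were higher in liver by 2-fold (7.36%) and 249 were higher in brain (76.4%). With the 1/16 template library these counts were 26 (7.98%) and 81 (24.8%). The median log2 ratio over all positions was -1.87 with the full-template library and -0.34 with the 1/16 template library. Each library is divided by its own mean, and in liver the 11 positions at HS-26 held 46% of all signal, so a high level there lowers the other relative signals. On the deposited scale, with no such division, 25 positions were higher in liver and 229 in brain, with a median of -1.63. Scaled to the median, which in liver is close to empty, 154 were higher in liver and 80 in brain, with a median of 0.79, so the direction in the flanks depends on the scale. Full-template liver itself was higher than 1/16 template liver at 8 positions (2.45%) and lower at 214 (65.6%), so libraries of the same tissue also differed widely in the flanks.

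**Figure D3:**
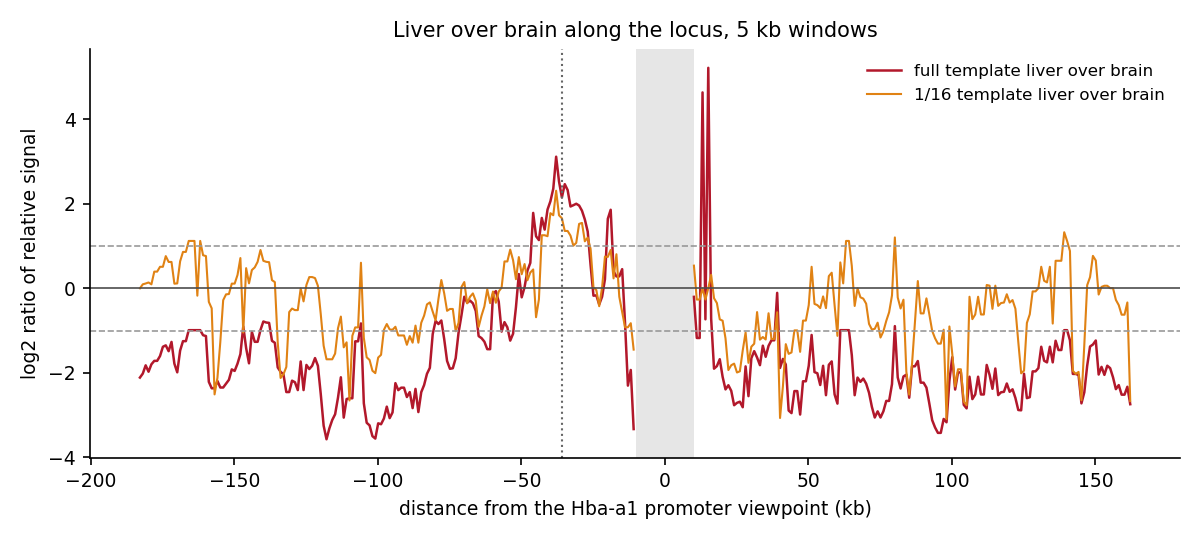
Log2 ratio of relative signal of each liver library over brain against distance from the viewpoint in kb, for 5 kb windows; dashed lines mark the fold of 2, the dotted line HS-26 and the grey block 10 kb to either side of the viewpoint. Both curves exceed the upper dashed line around HS-26, and over most of the flanks the full-template curve lies lower than the 1/16 template curve.

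Liver was higher in a single stretch. The only run of 5 or more neighbouring positions past the fold of 2 in that direction went from 32.139 to 32.158 Mb and held 20 of the 24 positions. Its mean relative signal was 10.1 in liver, 6.18 in 1/16 template liver and 2.39 in brain. The largest log2 ratio within the run, 3.12, stood at 32.147 Mb. With the 1/16 template library 17 of the 20 positions passed the fold. The remaining 4 positions were 32.165 and 32.166 Mb, described above, and 32.198 and 32.200 Mb, where brain was empty. Bands of the tissues did not overlap with liver above at 2 positions (0.613%), which were these empty ones, and with brain above at 130 (39.9%). With the 1/16 template library brain lay above at 6 (1.84%) and below at 0.

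Runs higher in brain covered the flanks. There were 12, with 241 of the 249 positions. The longest ran from 32.266 to 32.323 Mb with 58 positions, at a mean relative signal of 0.00631 in liver, where 29 positions were empty, and 0.444 in brain. The next ran from 32.048 to 32.078 Mb with 31 positions (0.0331 and 0.608) and from 32.080 to 32.104 Mb with 25 (0.0716 and 1.02). Over these stretches the 1/16 template library stood at 0.247, 0.279 and 0.388 and passed the fold at 17, 13 and 14 positions. Its recurring value is 0.333 in relative signal, so these levels lie near its floor and cannot be ranked between the tissues. The run from 32.202 to 32.223 Mb, 17.1 to 38.1 kb beyond the viewpoint, held 22 positions with no empty one, at 0.462 in liver, 0.889 in the 1/16 template library and 2.06 in brain. It was lower in both liver libraries at all 22 positions and passed the fold with the 1/16 template library at 16. A run of equal length, from 32.326 to 32.347 Mb, passed it with that library at 6 of its 22 positions.

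Signal by distance showed the same division of the locus. On the HS-26 side, from 25 to 50 kb, mean relative signal was 8.45 in liver, 5.34 in the 1/16 template library and 2.19 in brain. From 10 to 25 kb on that side the means of the 3 libraries were close, at 3.97, 3.38 and 3.42. Single positions there differed both ways. Of 15, 2 were higher in liver by 2-fold and 3 in brain, against 0 and 1 with the 1/16 template library. On the other side liver was the lowest in every zone, at 1.48 against 3.01 in brain from 10 to 25 kb and at 0.406 against 1.53 from 25 to 50 kb, though scaled to the median both zones were higher in liver, by 3.85 and 2.94 on the log2 scale. Beyond 100 kb brain kept 0.455 on the HS-26 side and 0.380 on the other, and liver 0.0232 and 0.00852. The 1/16 template library stood at 0.299 and 0.259, near its recurring value of 0.333, so it cannot be ranked there. On the HS-26 side the order of liver and brain, too, turned with scaling to the median, to a log2 ratio of 0.55.

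**Figure D4:**
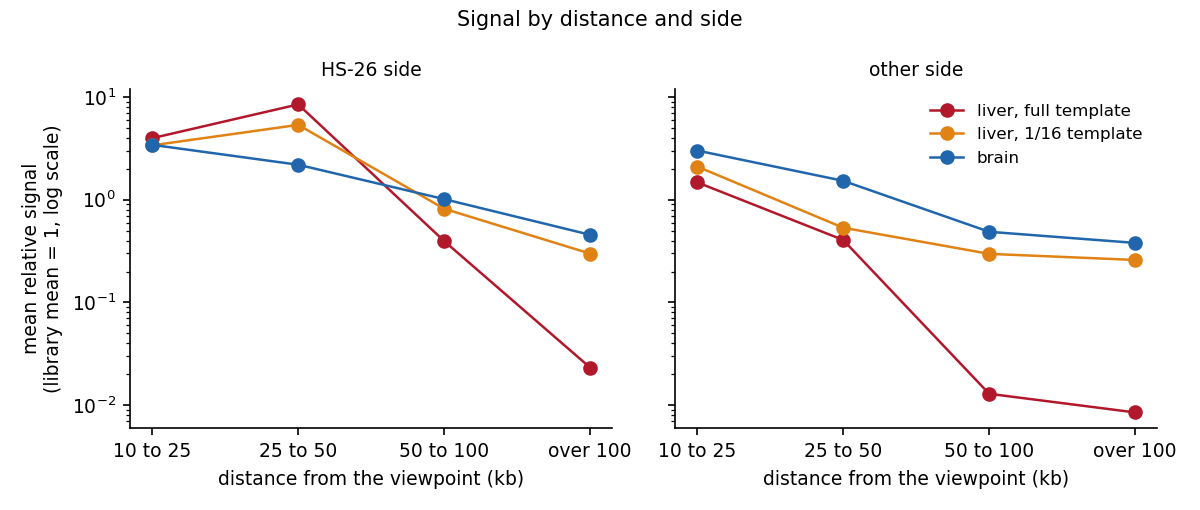
Mean relative signal (library mean = 1, log scale) by distance zone in kb on the HS-26 side and on the other side of the viewpoint, for the 3 libraries of the Hba-a1 promoter. Both liver libraries peak in the zone from 25 to 50 kb on the HS-26 side, at 8.45 and 5.34, whereas brain falls with every zone on both sides.

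Up to 100 kb the profile leaned to the enhancer side more in liver than in brain. The ratio of the HS-26 side to the other side at 25 to 50 kb was 20.8 in liver, 10.0 in the 1/16 template library and 1.43 in brain. At 50 to 100 kb it was 30.6, 2.74 and 2.08, so here the full-template library stood apart from the other two. Beyond 100 kb it was 2.72, 1.15 and 1.2, and the 1/16 template library leaned no more than brain. Library floors limit these ratios. On the other side the means from 50 to 100 kb were 0.0129 in liver and 0.297 in the 1/16 template library. The recurring values of these libraries are 0.0164 and 0.333 in relative signal. Over the 162 kb covered on both sides, 89.7% of the signal lay on the HS-26 side in liver, 76.2% in the 1/16 template library and 59.1% in brain.

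Signal in liver was also concentrated in few places. The 11 positions at HS-26 held 46% of all signal beyond 10 kb in liver, 27.1% in the 1/16 template library and 9.37% in brain. In liver the highest 12 positions were enough to reach 50% of the signal, against 25 in the 1/16 template library and 55 in brain. The highest 33 positions of each library held 82.2%, 56.9% and 36.8%.

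Local maxima placed the tissues' contacts side by side. In liver the highest beyond 10 kb were 32.150, 32.165, 32.200, 32.224 and 32.117 Mb, with relative signals of 17.8, 14.2, 3.63, 2.21 and 1.57. In brain they were 32.196, 32.171, 32.225, 32.152 and 32.117 Mb, with 5.53, 5.11, 4.42, 3.32 and 1.95. The liver maximum at 32.200 Mb and the brain maximum at 32.196 Mb lie in a stretch of empty windows described below. The site at 32.117 Mb, 67.9 kb from the viewpoint and 32 kb beyond HS-26, was in both lists at nearly the same relative level, with a log2 ratio of -0.29, and the 1/16 template library stood at 1.68 there. The site at 32.224 and 32.225 Mb, 39.1 and 40.1 kb away on the other side, was also in both lists. At 32.225 Mb, the brain maximum, brain stood at 4.42 and liver at 1.12, but at 32.224 Mb, the liver maximum, they were 2.39 and 2.21, a log2 ratio of -0.11. The HS-26 maximum thus existed in brain, as the fourth in rank, 2 kb from the liver position.

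The smoothing scale changed the size of the HS-26 difference and not its side. Its log2 ratio ran from 2.40 with the 2 kb window to 1.36 with the 49 kb window and passed the fold of 2 in all 48. HS-31 and HS-21 passed in all 48 too, with ranges of 1.30 to 2.20 and 1.23 to 2.19. HS-12 passed in 35 windows and HS-8 in 6, with lowest values of 0.64 at 7 kb and 0.06 at 19 kb. With the 1/16 template library the HS-26 ratio passed in 43 windows, with a lowest value of 0.90 at 49 kb. HS-26 over its mirror ranged from 12.8 to 28.2 in liver, from 4.65 to 12.9 in the 1/16 template library and from 1.13 to 1.95 in brain, so both liver ranges lay above that of brain. Wide windows take in neighbouring contacts, and at 49 kb the windows of all 5 sites overlap. HS-8 passed only with windows of 44 kb or more. From its place 17.9 kb away these reach the viewpoint itself, so the passes cannot be read as contact at the site.

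**Figure D5:**
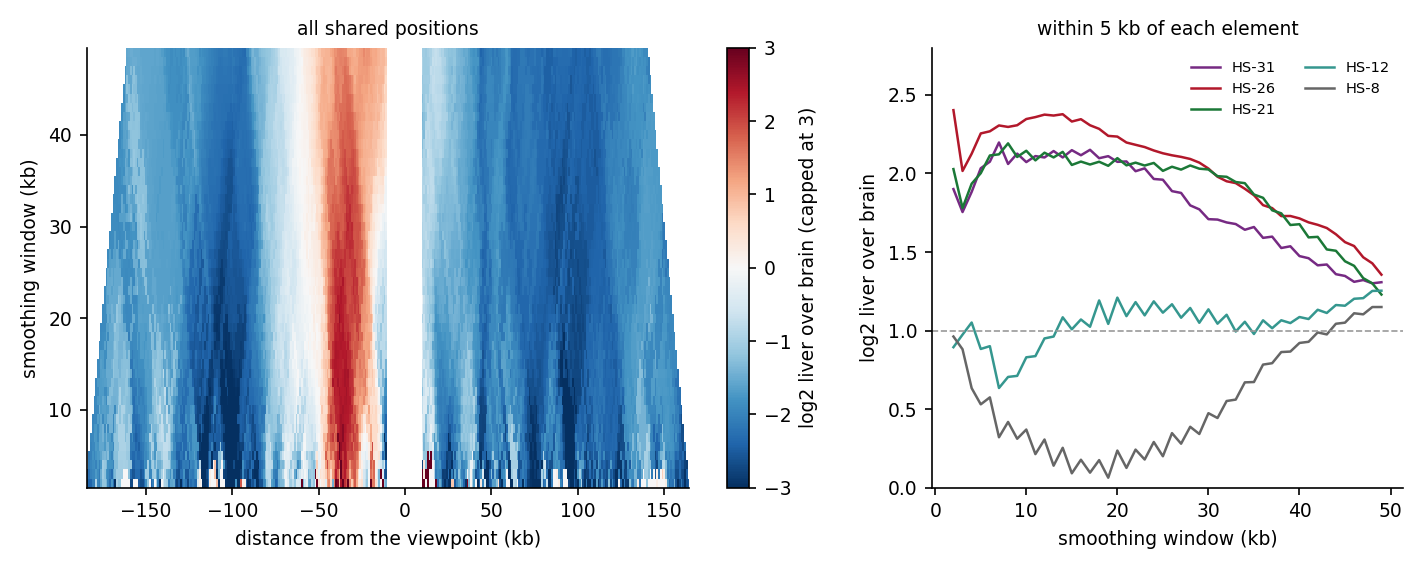
Left, log2 ratio of relative signal, full-template liver over brain, by distance from the viewpoint in kb and smoothing window in kb, with colours capped at 3. Right, the ratio within 5 kb of each hypersensitive site by window, with a dashed line at the fold of 2. The region higher in liver at HS-26 is present in every window from 2 to 49 kb, and HS-8 approaches 0 at 19 kb.

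In rank the profiles were alike on the HS-26 side and less so on the other. Spearman's rho of liver and brain was 0.765 over 326 positions (Pearson's r 0.733 on the log2 scale), 0.861 over the 173 on the HS-26 side and 0.577 over the 153 on the other. The 1/16 template library and brain gave 0.740 over all positions, and the liver libraries gave 0.817. The liver libraries, too, were less alike on the other side, with a rho of 0.735 against 0.873 on the HS-26 side. In rank they stayed above the 0.577 of liver and brain there, whereas their Pearson's r of 0.606 lay below the 0.648 of liver and brain. Both pairs were thus less alike on the other side, and which pair was the less alike depended on the measure. Positions share their windows and the fall with distance, so these values describe the profiles and carry no test.

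From the opposite end, the libraries made from HS-26 had the Hba-a1 promoter at a relative signal of 7.19 in liver and 2.64 in brain, a log2 ratio of 1.41. On the deposited scale, with no division by the library mean, the direction turned, with signals of 0.0333 in liver and 0.0422 in brain. Within each library the promoter was 9.56 times its mirror position in liver and 1.46 times in brain, close to the 1.43 seen in brain from the promoter. The signal at that mirror position was 0.00348 in liver and 0.0290 in brain. The liver library made from HS-26 took 1 recurring low value, 0.00096, at 38.8% of its positions, and a low mirror signal raises the ratio.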

How the data were processed

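The deposited files hold a signal that, per the labels and file names, the authors normalized and summarised as running medians; it is given relative to the viewpoint level in mm9 coordinates, per the submitters' processing notes. Window sizes were read from the unfilled ends of each column. Which aligner and filters were used, how many reads entered and whether the liver library pools runs is unknown here (not given in the sources used).

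Profiles were matched to the liver positions within 500 bp ; those closer than 10 kb to the viewpoint were dropped, and each library was divided by its mean. A pseudocount of 0.1 was added before log2. Targets reach 5 kb to either side, and positions under 1e-09 count as empty. Decays were isotonic fits (scikit-learn 1.9.0; Python 3.11.15, numpy 2.4.6, pandas 2.3.3, scipy 1.17.1, Biopython 1.88). The ratio at a target, the runs and the share by side were tested on simulated smooth profiles with no empty positions. The ratio and the runs were tested there without scaling or pseudocount. The other measures were not tested in this way. Named were the 5 sites, up to 5 local maxima per library at least 15 kb apart, and the 4 longest runs of at least 5 positions per direction. Members, sites and measures were chosen with earlier results of these data known. Ratios within a library, the stretch next to the promoter and the rise at 32.165 Mb were added after the values were seen. Gene names and promoter sequences come from RefSeq tables of GRCm38.p6, whose coordinates were not used.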

Additional observations from a re-analysis of the deposited data

How the results depend on the processing

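The HS-26 ratio kept its direction under all 16 alternatives, from 0.58 to 7.17, and its side of the fold of 2 under 15. The exception, 0.58, is the decay fitted on the side of the target, which also took the observed over expected difference to 0.58, against 3.58 with a power law. HS-26 over its mirror kept its call under all 6 alternatives, from 2.86 to 4.05 on the log2 scale. The count of positions higher in liver moved to 154 when scaled to the median and to 10 at a fold of 4. That higher in brain moved to 80 when scaled to the median, 105 with a pseudocount of 0.5, 81 with the 1/16 template library and 142 at a fold of 4. Bands apart with liver above numbered 17, 0 and 0 with windows of 2, 10 and 20 kb, 7 on the deposited scale, 65 scaled to the median, 5 and 0 with exclusions of 5 and 20 kb, 0 with the 1/16 template library and 0 without empty positions. With brain above they numbered 0 scaled to the median and 6 with the 1/16 template library. The share on the HS-26 side in liver moved to 76.2% with that library, and the rank correlation to 0.577 on the other side alone. Scaling to the median reversed the zones from 50 kb (3.47) and from 100 kb (0.55) on the HS-26 side and from 10 kb (3.85) and 25 kb (2.94) on the other. The cause of these shifts was not tested. No paired analysis was possible because each tissue has 1 library. Depth is unknown, and the floor of each library limits what can be read in the flanks.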

Other observations

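The third highest liver maximum, 32.200 Mb, stands where the other libraries held nothing. At 32.198 and 32.200 Mb the 5 kb window was 0 in the brain and 1/16 template libraries and in both libraries made from HS-26, with lower and higher values of 0, and it stayed at 0 in 4 windows up to 5 kb. The full-template liver library alone had signal there, 0.0991 and 0.150, but at 32.200 Mb it too was 0 in windows up to 3 kb. At 32.196 Mb, 2 kb nearer to the viewpoint, brain held its highest maximum beyond 10 kb, 0.170, and the 1/16 template library held 0.228. Each repeated its value at 32.197 and 32.199 Mb, and both were 0 at these positions in the 2 kb window. The brain maximum therefore lies in the same sparsely filled stretch. Positions 32.198 and 32.200 Mb gave the highest log2 ratios of the profile, 4.64 and 5.22, so the largest liver excess by number is one against empty windows.

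With the 2 kb window, brain and the 1/16 template library, which share a grid, were empty at 75 positions each beyond 10 kb, and all 75 were the same positions. The full-template liver library was empty at 111, of which 48 were shared with brain, 43.2% of its own and 64% of those of brain. Within 50 kb of the viewpoint brain had 21 empty positions and full-template liver 8, all of them shared. With the 5 kb window, 69 positions were empty in liver alone, all at least 59.1 kb from the viewpoint, and 2 in brain alone, the ones at 32.198 and 32.200 Mb.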
